A study of Mus musculus with 10 samples.

Results

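The colony-stimulating factor (CSF) receptors and their ligand were followed in mouse microglia from adult brain and from 4 culture conditions. The 6 genes were chosen by name, as the receptor chains *Csf1r*, *Csf2ra*, *Csf2rb*, *Csf2rb2* and *Csf3r* and the ligand *Csf1*, and all 6 of 6 were found among the 18292 gene symbols in the deposited tables and passed the filter on low counts. Single cell libraries were made with 10x Genomics 3′ chemistry from 5 groups of 2 libraries each. Adult microglia were acutely isolated from adult C57BL/6 mouse brain. *In vitro* microglia came from mixed glial cultures of neonatal C57BL/6 cortices and were collected from the medium at about 3 weeks of culture, and slice microglia came from coronal brain slices of neonatal C57BL/6 pups kept on a membrane insert for 1 day, 1 week or 3 weeks. The slice medium held serum and hPDGF, no group received a CSF ligand according to the labels, and several slices were pooled where needed. The cells of all 5 groups were sorted by FACS as DAPI-, CD45 intermediate and CD11B high. There was no group of freshly isolated neonatal microglia, so the age of the animals and the culture cannot be told apart in any comparison with adult.

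CSF1R is the receptor tyrosine kinase on which microglia depend for survival and proliferation, and its ligands are CSF1 and IL-34. GM-CSF and G-CSF act through cytokine receptors without a kinase of their own. The GM-CSF receptor pairs a ligand-specific alpha chain, encoded by *Csf2ra*, with the common beta chain encoded by *Csf2rb*, which signals through JAK2 and STAT5. The mouse has a further beta chain gene, *Csf2rb2*, whose product serves the IL-3 receptor, and *Csf3r* encodes the G-CSF receptor, best known from neutrophils.

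In the annotation of the mm10 assembly (GENCODE vM21, GRCm38), *Csf2rb2* lies at chr15:78282507-78305721 on the minus strand and *Csf2rb* at chr15:78325752-78353847 on the plus strand, 20030 bases apart. The pair share long stretches of sequence, since 28.0% of the 31-base words in the *Csf2rb* transcript also occur in *Csf2rb2*, but only 1.28% of those in its last 500 bases, the end that 3′ libraries read. Of the 403 words of 98 bases in the last 500 bases of the *Csf2rb* transcript, 0 occur in *Csf2rb2*. Reads of 1 beta chain gene from the shared stretches could still have been dropped or counted for the other, so the division of counts between this pair is uncertain. *Csf2ra* lies at chr19:61223957-61228429 (minus strand), *Csf3r* at chr4:126024550-126044440 (plus strand) and *Csf1* at chr3:107741048-107760469 (minus strand).

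The promoters of 4 members are shown, which were not picked by their direction of change, and *Csf2rb* had no entry in the reference. Each is the RefSeq window of 300 bases around the gene start on GRCm38.p6, written 5′ to 3′ on the strand of the gene: chr19:61228369-61228668 (minus strand) for *Csf2ra*, chr15:78305672-78305971 (minus strand) for *Csf2rb2*, chr4:126024409-126024708 (plus strand) for *Csf3r* and chr3:107760420-107760719 (minus strand) for *Csf1*. Capitals mark matches to the PU.1 (ETS) core GAGGAA, the STAT motif TTCNNNGAA or the NF-kB motif, read on both strands.
Csf2ra: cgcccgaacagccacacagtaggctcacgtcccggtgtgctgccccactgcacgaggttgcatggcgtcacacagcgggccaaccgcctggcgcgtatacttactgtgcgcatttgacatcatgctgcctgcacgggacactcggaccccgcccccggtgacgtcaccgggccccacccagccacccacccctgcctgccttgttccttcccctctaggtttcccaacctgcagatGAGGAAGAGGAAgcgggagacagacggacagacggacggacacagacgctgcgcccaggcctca
Csf2rb2: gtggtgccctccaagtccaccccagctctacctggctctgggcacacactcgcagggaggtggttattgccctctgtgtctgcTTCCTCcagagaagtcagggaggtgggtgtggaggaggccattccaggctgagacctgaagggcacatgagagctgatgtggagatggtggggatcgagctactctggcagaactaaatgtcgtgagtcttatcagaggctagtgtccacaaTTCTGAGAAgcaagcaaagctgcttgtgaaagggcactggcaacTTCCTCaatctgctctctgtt
Csf3r: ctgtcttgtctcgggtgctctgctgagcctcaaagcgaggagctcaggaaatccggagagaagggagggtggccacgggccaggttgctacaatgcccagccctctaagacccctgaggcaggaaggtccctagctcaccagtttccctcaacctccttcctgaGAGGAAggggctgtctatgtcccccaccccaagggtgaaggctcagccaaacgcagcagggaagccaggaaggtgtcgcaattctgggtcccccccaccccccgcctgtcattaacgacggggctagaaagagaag
Csf1: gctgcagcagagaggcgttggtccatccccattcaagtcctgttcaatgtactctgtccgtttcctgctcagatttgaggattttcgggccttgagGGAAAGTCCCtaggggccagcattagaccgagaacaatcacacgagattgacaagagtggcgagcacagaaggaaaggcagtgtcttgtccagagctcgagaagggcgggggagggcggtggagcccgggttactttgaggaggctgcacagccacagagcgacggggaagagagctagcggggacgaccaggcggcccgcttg
The ETS core was present at 2 positions in *Csf2ra*, at 2 in *Csf2rb2* (both on the opposite strand) and at 1 in *Csf3r*, and it was absent from the *Csf1* window. It is a common word, found in 28.3% of the 32817 promoters of this length. The *Csf1* window held the NF-kB motif on the opposite strand, starting 154 bases before the gene start, a motif found in 1.63% of promoters, and the *Csf2rb2* window held the STAT motif, found in 8.29%. AP-1 (TGANTCA), C/EBP (TTGCGCAA) and E-box (CACGTG) words were in none of the 4 windows. The *Csf2ra* window was the richest in G and C (65.3%, with 23 CpG sites) against a median of 52.7% and 7 CpG sites over all promoters. These matches describe the letters only.

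After removal of 578 low-quality barcodes, 19059 cells remained, between 61 and 3799 per library, with library totals between 385373 and 39689540 UMIs. The 2 slice 1 week libraries were the smallest, so their values are the least precise. Markers of microglia (9 of 9) were detected in every library, but their summed level was highest in adult (39606 and 40820 CPM) and lowest *in vitro* (4011 and 3281 CPM). The 7 markers of border macrophages summed to 2321 and 2228 CPM *in vitro*, against 12.2 and 7.06 CPM in adult. They were at 331 and 286 CPM at 1 day, 241 and 213 CPM at 1 week and 121 CPM in slice 3 weeks replicate 1. Neutrophil markers stood out in both slice 1 day libraries (7660 and 22423 CPM) and in slice 1 week replicate 1 (40259 CPM), against 955 CPM in slice 1 week replicate 2 and at most 8.39 CPM in the other 6 libraries. At most 23 cell barcodes were shared between any 2 libraries. Adult replicate 1 and slice 3 weeks replicate 1 carry a different study identifier in the labels from the other 8 libraries. Since *in vitro*, slice 1 day and slice 1 week libraries all carry the second identifier, each has 1 within-identifier value against adult. All 23 within-identifier values of called members had the direction of the fit, but they reuse the libraries of the fit and are no separate support for it. Among members not called, *Csf2rb2* at 3 weeks was −0.20 within the first identifier, against 0.28 in the fit.

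Levels are given as CPM, the UMIs of a gene per 1000000 UMIs summed over the cells of a library, scaled by TMM factors. Changes were tested with edgeR in 1 model of the 5 groups, and a gene was called at an adjusted p under 0.05 and a fold change over 1.5. The paper calls the 2 samples of a group independent, but the labels do not say whether they came from separate animals. P-values therefore measure only the spread between these libraries, which may be technical. In sums over cells, fewer expressing cells and less RNA per cell cannot be told apart. Shares of single cells are given further on, but a share also falls when the level per cell falls.

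All 6 members differed from adult *in vitro* (2 higher and 4 lower, where 22.4% and 28.5% of the 12157 genes tested were, 50.8% in all) and in slices at 1 day (4 higher and 2 lower, beside 24.9% and 25.3% of genes, 50.2% in all). At 1 week 5 members were called (3 higher and 2 lower, beside 15% and 13.6% of genes, 28.6% in all), and at 3 weeks 3 members (1 higher and 2 lower, beside 17.9% and 17.5%, 35.4% in all). On the TMM scale *Csf1r* and *Csf3r* were lower than adult in all 4 cultures (as UMIs per cell *Csf1r* was not lower *in vitro*), *Csf2rb* was higher in 3, and *Csf1* was lower *in vitro* and higher at each slice time. With so many genes called, the number of members called is not by itself particular to this family. The 4 comparisons share the adult libraries. The split of the called genes depended on the scaling: 56.0%, 50.5%, 47.5% and 49.4% of them were lower than adult *in vitro* and at 1 day, 1 week and 3 weeks of slice culture, against 70.1%, 56.9%, 62.3% and 64.2% with library size alone and at most 5.5% as UMIs per cell. Adult cells held the fewest UMIs, with a median of 3257 and 1858, against 5266 or more in the other 8 libraries.

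**Figure D1:**
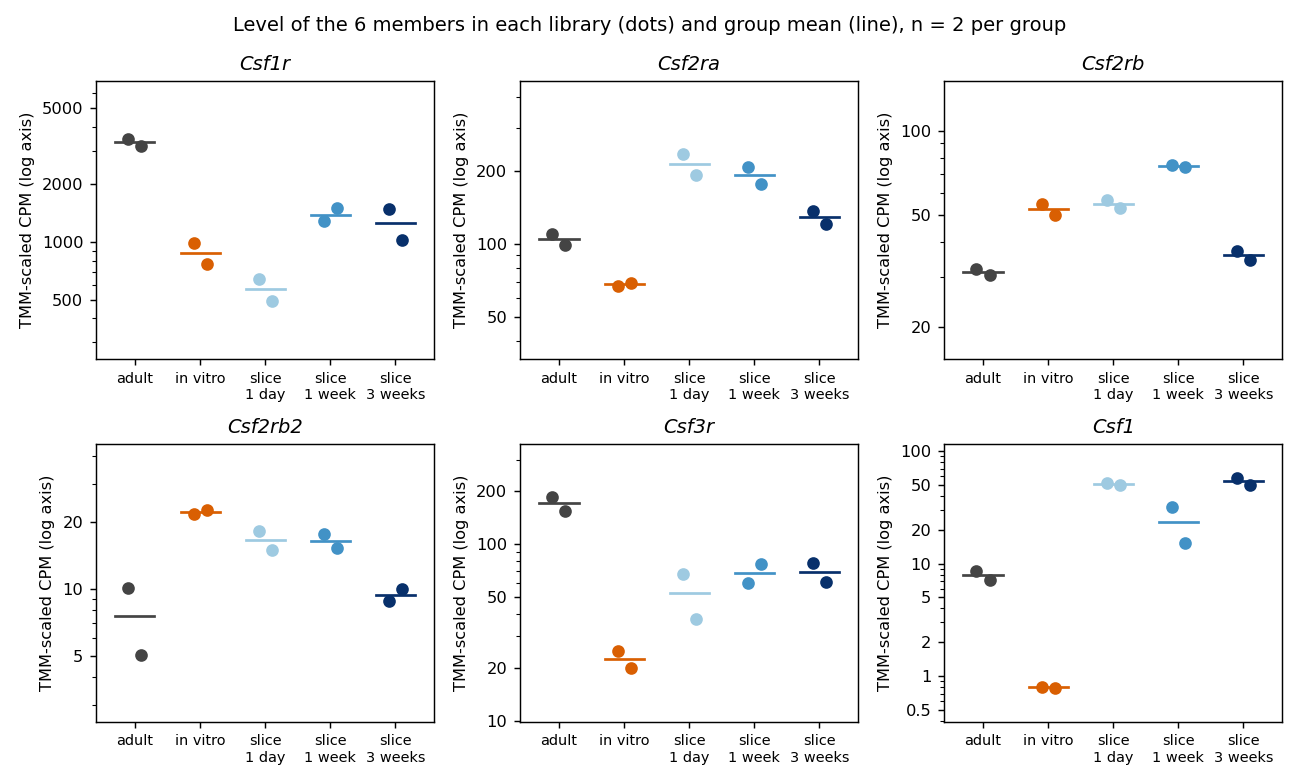
Level of each member (TMM-scaled CPM, log axis) in the 10 libraries, with 1 dot per library and a line at the mean of the 2 libraries of a group. *Csf1r* and *Csf3r* are highest in both adult libraries, and *Csf1* is under 1 CPM in both *in vitro* libraries.

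The receptor *Csf1r* was measured at 3459 and 3180 CPM in adult (replicates 1 and 2), 988 and 773 CPM *in vitro*, 645 and 492 CPM in slices at 1 day, 1283 and 1504 CPM at 1 week and 1483 and 1031 CPM at 3 weeks. Both adult libraries lay above all 8 cultured libraries, and both 1 day libraries lay below all others. On this scale the level fell 5.84-fold at 1 day (log2 fold change −2.55 ± 0.23 SE, edgeR adjusted p = 1.14e-05), 2.64-fold at 3 weeks (−1.40 ± 0.22, adjusted p = 0.000656) and 2.38-fold at 1 week (−1.25 ± 0.22, adjusted p = 0.00184). *In vitro* it fell 3.77-fold (−1.91 ± 0.22, adjusted p = 4.11e-05), although without any scaling for depth, as UMIs per cell, this difference turned to 0.24. The deep *in vitro* cells held 12.7 and 10.3 *Csf1r* UMIs each, against 12.4 and 7.0 in adult, 4.75 and 4.71 after 1 day, 8.77 and 9.64 after 1 week and 9.94 and 5.92 after 3 weeks. A *Csf1r* UMI was therefore a smaller share of a larger total *in vitro*. As UMIs per cell the fall was called at 1 day only, and the values at 1 week (−0.08) and 3 weeks (−0.29) did not pass the test.

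Within the slices, *Csf1r* rose from 1 day to 1 week (1.29 ± 0.22, adjusted p = 0.00633) and stood higher at 3 weeks than at 1 day (1.15 ± 0.22, adjusted p = 0.00357), a call lost as UMIs per cell (0.75, adjusted p = 0.166). The 1 week and 3 weeks levels did not differ beyond their spread (−0.15, 95% interval −0.62 to 0.33). *In vitro* against slice 3 weeks was not called (−0.51, 95% interval −0.99 to −0.04, adjusted p = 0.0821), though without slice 3 weeks replicate 2 it was (−0.69, adjusted p = 0.0329). The order of the means was adult, 1 week, 3 weeks, *in vitro* and 1 day. The last step, *in vitro* over 1 day, was called narrowly (0.63 ± 0.21, adjusted p = 0.0412) and was lost in 5 of 17 other settings. These were without *in vitro* replicate 1 (0.52, adjusted p = 0.205), without slice 1 day replicate 2 (0.50, adjusted p = 0.228), with library size alone (0.45, adjusted p = 0.149) and with either choice of cells with other markers left out (0.56 and 0.57). The rise from 1 day to 1 week was not called without slice 1 day replicate 2 (1.10, adjusted p = 0.0708), in cells thinned to 1500 UMIs (0.87, adjusted p = 0.0703) or as UMIs per cell (0.96, adjusted p = 0.125).

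*Csf1*, which encodes the ligand, was measured at 8.64 and 7.21 CPM in adult, 0.803 and 0.786 CPM *in vitro*, 51.6 and 49.8 CPM at 1 day, 31.6 and 15.4 CPM at 1 week and 58.2 and 50.4 CPM at 3 weeks. No 2 neighbouring groups overlapped except 1 day and 3 weeks. The *in vitro* values rest on 25 and 28 UMIs in the 2 deepest libraries, and slice 1 week replicate 2 on 6 UMIs. *Csf1* was 9.96-fold lower *in vitro* than in adult (−3.32 ± 0.24, edgeR adjusted p = 1.75e-06). In slices it was 6.33-fold higher at 1 day (2.66 ± 0.20, adjusted p = 4.51e-06), 3.27-fold higher at 1 week (1.71 ± 0.28, adjusted p = 0.00135) and 6.77-fold higher at 3 weeks (2.76 ± 0.20, adjusted p = 7.44e-06). The 1 week call was lost without slice 1 week replicate 1 (0.97, adjusted p = 0.384), in thinned cells (1.72, adjusted p = 0.0922) and without cells that held markers of another cell type (1.20, adjusted p = 0.0869). These directions held under each scaling tried.

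Compared directly, *Csf1* was 67.5-fold lower *in vitro* than in slices at 3 weeks (−6.08 ± 0.24, adjusted p = 2.08e-07), in a comparison in which 4 members were called (1 higher, 3 lower) beside 33.2% of all genes (13.3% higher, 19.9% lower). It was 63.0-fold lower than at 1 day (−5.98 ± 0.24, adjusted p = 3.95e-07) and 32.6-fold lower than at 1 week (−5.03 ± 0.33, adjusted p = 1.87e-05). Against 1 day, 4 members were called *in vitro* (1 higher, 3 lower) beside 31.9% of genes (13.3% higher, 18.6% lower), and against 1 week 3 members (0 higher, 3 lower) beside 16.2% (6.2% higher, 10% lower). The 1 day and 3 weeks slices did not differ beyond their spread (0.10, 95% interval −0.30 to 0.50). The dip at 1 week was called against 1 day (−0.95 ± 0.25, adjusted p = 0.0394) and against 3 weeks (1.05 ± 0.25 for 3 weeks over 1 week, adjusted p = 0.0382). Against 1 day this call was lost when any 1 of the 4 libraries was left out, with values from −1.74 to −0.76. Against 3 weeks it was lost without slice 1 week replicate 1 (1.84, adjusted p = 0.0833) or replicate 2 (0.86, adjusted p = 0.0781). Each of these calls was lost in 7 of 16 other settings.

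**Figure D2:**
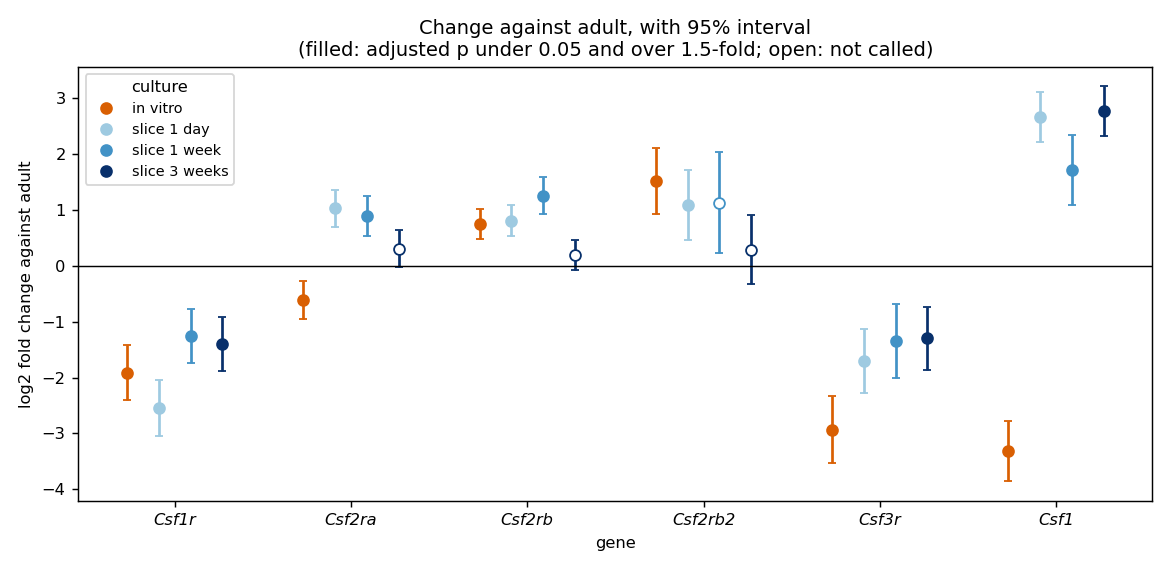
Log2 fold change of each member against adult in the 4 cultures, with the 95% interval of the edgeR fit on TMM-scaled counts. Filled points were called (adjusted p under 0.05 and over 1.5-fold) and open points were not; *Csf1* lies at −3.32 *in vitro* and between 1.71 and 2.76 in slices, and the *in vitro* values of *Csf1r* and *Csf2ra* turned to 0.24 and 1.54 as UMIs per cell.

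The GM-CSF receptor alpha chain, *Csf2ra*, was measured at 110 and 99.6 CPM in adult, 67.5 and 69.1 CPM *in vitro*, 233 and 193 CPM at 1 day, 208 and 177 CPM at 1 week and 137 and 121 CPM at 3 weeks. The *in vitro* libraries lay below all others, and the 1 day and 1 week libraries overlapped above the rest. *Csf2ra* was 2.03-fold higher than adult at 1 day (1.02 ± 0.15, edgeR adjusted p = 0.000285) and 1.85-fold higher at 1 week (0.89 ± 0.16, adjusted p = 0.00231). At 3 weeks the difference did not pass the test (0.30 ± 0.15, 95% interval −0.03 to 0.64, adjusted p = 0.135). *In vitro* it was 1.53-fold lower (−0.62 ± 0.15, adjusted p = 0.00534), just past the fold required, and the call was lost in 11 of 17 other settings and turned to 1.54 as UMIs per cell. Leaving out adult replicate 1 (−0.45) or *in vitro* replicate 1 (−0.48) or 2 (−0.51) each ended it.

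*Csf2ra* was lower *in vitro* than in slices at 1 day (−1.64, adjusted p = 4.09e-05), 1 week (−1.50, adjusted p = 0.000225) and 3 weeks (−0.92 ± 0.15, adjusted p = 0.00105), although as UMIs per cell the 3 weeks difference was 0.15, the 1 week difference −0.52 (not called, adjusted p = 0.237) and the 1 day difference −0.99. From 1 day to 3 weeks in slices it fell (−0.72 ± 0.15, adjusted p = 0.00596), in a comparison with 3 members called (1 higher, 2 lower) and 26.7% of all genes (13.9% higher, 12.8% lower). That call was lost without slice 1 day replicate 1 (−0.58, adjusted p = 0.046, under 1.5-fold). In the order 1 day, 1 week, 3 weeks, adult and *in vitro*, no neighbours were called except adult and *in vitro*. The step from 1 week to 3 weeks lay just under 1.5-fold (−0.58, adjusted p = 0.0618) and was called with DESeq2 (−0.62, adjusted p = 0.00911).

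The common beta chain, *Csf2rb*, was measured at 32.1 and 30.7 CPM in adult, 54.6 and 50.1 CPM *in vitro*, 56.6 and 53.2 CPM at 1 day, 75.1 and 74.2 CPM at 1 week and 37.3 and 34.6 CPM at 3 weeks. Replicates lay close together, the adult libraries were the lowest and the 1 week libraries the highest. It rose 1.67-fold *in vitro* (0.74 ± 0.12, edgeR adjusted p = 0.000472), 1.75-fold at 1 day (0.80 ± 0.12, adjusted p = 0.000374) and 2.38-fold at 1 week (1.25 ± 0.15, adjusted p = 0.00019). With library size alone the *in vitro* value was 0.43, under the fold required. At 3 weeks it was within its error of adult (0.19 ± 0.12, 95% interval −0.08 to 0.47), a value that went to −0.0093 with library size as the only scaling. *Csf2rb* fell from 1 week to 3 weeks (−1.06 ± 0.15, adjusted p = 0.00369), where 2 members (1 higher, 1 lower) and 5.72% of genes were called (2.23% higher, 3.49% lower), a call lost without slice 1 week replicate 1 (−1.03, adjusted p = 0.104), in thinned cells (−0.86, adjusted p = 0.231) and as UMIs per cell (−1.15, adjusted p = 0.0525). From 1 day to 3 weeks it also fell (−0.61 ± 0.12, adjusted p = 0.00498). This was under 1.5-fold without slice 1 day replicate 1 (−0.57), without slice 3 weeks replicate 2 (−0.54) and without cells with at least 2% neutrophil-marker UMIs (−0.50) or with any other markers (−0.54).

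In the order 1 week, 1 day, *in vitro*, 3 weeks and adult, no pair of neighbours was called for *Csf2rb*. The nearest to a call was *in vitro* over 3 weeks (0.55 ± 0.12, adjusted p = 0.00534), under 1.5-fold here but over it and called in 8 of 17 other settings, such as with no filter on low genes (0.64), with every barcode (0.59) or without slice 3 weeks replicate 1 (0.68). *In vitro* and 1 day did not differ beyond their spread (−0.07, 95% interval −0.33 to 0.20).

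The IL-3 beta chain gene, *Csf2rb2*, was measured at 10.1 and 5.02 CPM in adult, 21.8 and 22.7 CPM *in vitro*, 18.3 and 14.9 CPM at 1 day, 17.8 and 15.4 CPM at 1 week and 8.80 and 10.0 CPM at 3 weeks. The adult replicates lay far apart and the 3 weeks libraries fell between them, all 4 below the *in vitro*, 1 day and 1 week libraries. The 1 week values rest on 18 and 6 UMIs. *Csf2rb2* was 2.86-fold higher than adult *in vitro* (1.52 ± 0.27, edgeR adjusted p = 0.000736) and 2.11-fold higher at 1 day (1.08 ± 0.28, adjusted p = 0.00835). Leaving out adult replicate 1 or 2 moved these values to 2.24 or 1.14 *in vitro* and to 1.75 or 0.70 at 1 day, and the 1 day call was lost in thinned cells (0.60, adjusted p = 0.238). At 1 week (1.13 ± 0.41, 95% interval 0.22 to 2.03, adjusted p = 0.0611) and 3 weeks (0.28 ± 0.28, −0.33 to 0.90) it did not pass the test. The 1 week value was called in 6 of 16 other settings, among them RLE factors (1.19, adjusted p = 0.0476), DESeq2 (1.19, adjusted p = 0.0261) and no filter on low genes (1.06, adjusted p = 0.0214). Without adult replicate 1, both were called (1.80 and 0.97), and without adult replicate 2 the 3 weeks value was −0.10. *In vitro* it was above slice 3 weeks (1.23 ± 0.26, adjusted p = 0.00433), and no neighbours in the order of levels (*in vitro*, 1 day, 1 week, 3 weeks, adult) were called.

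*Csf3r*, the G-CSF receptor, was measured at 184 and 154 CPM in adult, 24.7 and 19.8 CPM *in vitro*, 67.9 and 37.6 CPM at 1 day, 60.3 and 76.8 CPM at 1 week and 78.0 and 60.6 CPM at 3 weeks. Adult libraries lay above and *in vitro* libraries below all others, and the slice times overlapped. *Csf3r* fell 7.63-fold *in vitro* (−2.93 ± 0.27, edgeR adjusted p = 8.33e-06), 3.26-fold at 1 day (−1.71 ± 0.26, adjusted p = 0.000348), 2.54-fold at 1 week (−1.35 ± 0.30, adjusted p = 0.007) and 2.45-fold at 3 weeks (−1.29 ± 0.25, adjusted p = 0.0026). The 1 week call was lost without slice 1 week replicate 1 (−1.11, adjusted p = 0.149), and as UMIs per cell the 3 slice values (−0.22, −0.16 and −0.21) were not called. *In vitro* it was also below slice 3 weeks (−1.64 ± 0.26, adjusted p = 0.000808) and 1 day (−1.23 ± 0.26, adjusted p = 0.00472), the latter lost without *in vitro* replicate 2 (−1.0, adjusted p = 0.0629). As UMIs per cell neither was called (−0.58, adjusted p = 0.142, and −0.56, adjusted p = 0.206). The slice times did not differ from each other beyond their spread, as for 3 weeks over 1 day (0.41, 95% interval −0.16 to 0.98), a difference called without slice 1 day replicate 1 (0.87, adjusted p = 0.0333).

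The slice 1 day and 1 week sorts held cells with neutrophil markers, in which *Csf3r* is known to be expressed. Cells with at least 2% of their UMIs on the 9 neutrophil markers, a limit set after the values were seen, made up 68 cells (13.1%) and 110 cells (10.8%) of the 1 day libraries, 24 cells (16.2%) of slice 1 week replicate 1 and 1 cell (1.64%) of replicate 2. There were 0 such cells in the other 6 libraries. A lower limit, at least 5 UMIs and 0.5% of a cell on the markers of another cell type, took in 14.7% and 33.1% of the 1 day cells and 79.7% (118 of 148 cells) and 1.64% of the 1 week cells. The median cell held 0.589% neutrophil-marker UMIs in slice 1 week replicate 1 and 0.449% in 1 day replicate 2, close to this limit. In 1 day replicate 1 it held 0.0587%. Whether the cells between the limits are another cell type or carry a background of the library was not tested. The cells over 2% were shallow cells, with a median of 2224, 4925 and 4490.5 UMIs (1 day replicates 1 and 2, 1 week replicate 1) against 6986, 8868 and 7292 in the other cells of the same libraries.

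At 1 day the marked cells held 600 and 164 CPM of *Csf3r* against 44.7 and 27.6 CPM in the other cells, and so 39.8% and 33.4% of the *Csf3r* UMIs of their libraries. *Csf1r* was lower in marked cells, at 151 and 59.1 CPM against 698 and 538 CPM at 1 day and 81.3 against 1378 CPM in slice 1 week replicate 1. *Csf2ra* differed less, at 332 and 219 CPM in marked cells against 239 and 194 CPM in others at 1 day. *Csf2rb* was at 175 and 79.2 CPM in them against 53.3 and 52.0 CPM. In slice 1 week replicate 1 the counting intervals of marked and other cells overlapped for *Csf2rb* (61.0 against 71.8 CPM) and *Csf3r* (67.7 against 54.7 CPM). *Csf1* was higher in the marked cells of 1 day replicate 1 (140 against 49.6 CPM) and lower in those of replicate 2 (36.2 against 51.9 CPM), and the marked cells held 12.2% and 5.59% of the *Csf1* UMIs of these libraries. These are cells of single libraries, given without a test.

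**Figure D3:**
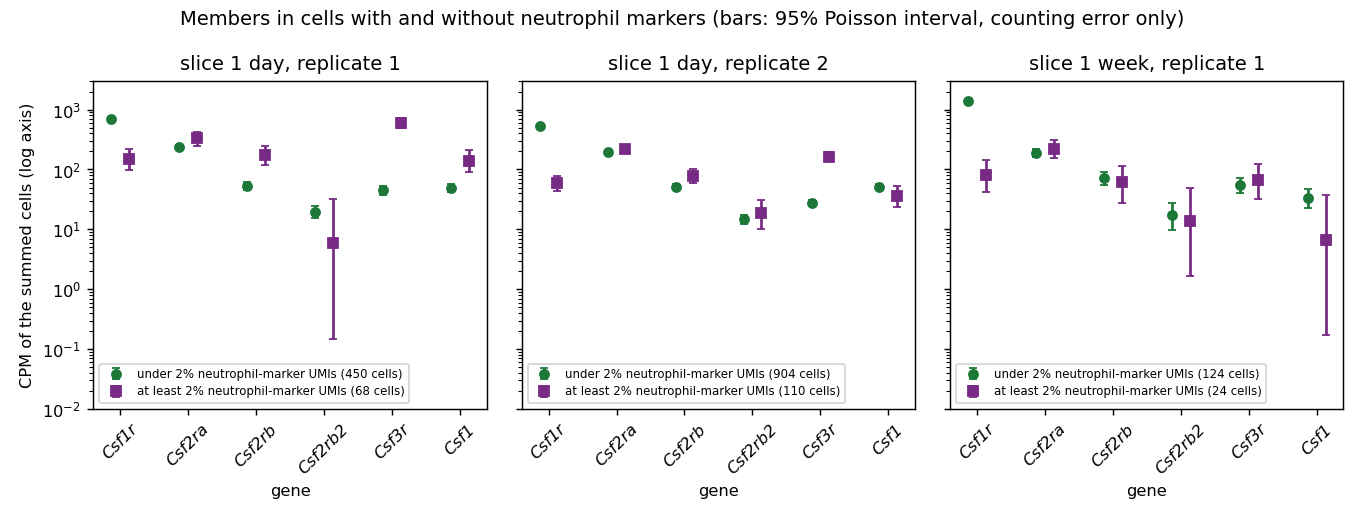
CPM of each member (log axis) in the summed cells with at least 2% neutrophil-marker UMIs and in the other cells of the same library, with 95% Poisson intervals that cover counting error only. *Csf3r* is higher and *Csf1r* lower in the marked cells of both 1 day libraries.

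Without these cells, the changes against adult kept their direction and calls for all 4 cultures and the 6 members. Under the lower limit, which dropped 79.7% of the cells of slice 1 week replicate 1, *Csf1* at 1 week was not called (1.20, edgeR adjusted p = 0.0869). *Csf3r* at 1 day went from −1.71 to −2.31 (adjusted p = 2.26e-05), and *Csf1r* from −2.55 to −2.48. For *Csf3r* within the cultures, 3 weeks over 1 day became called (1.02, adjusted p = 0.00919), and *in vitro* against 1 day was no longer called (−0.62, adjusted p = 0.0623). *Csf1r* *in vitro* over 1 day went under 1.5-fold (0.57, adjusted p = 0.0464). *Csf1* was no longer called for 1 week against 1 day (−0.85, adjusted p = 0.0572) or for 3 weeks against 1 week (1.00, adjusted p = 0.0555). For 1 week against 1 day, 2 members (1 higher, 1 lower) were called with all cells, beside 10.2% of genes (4.91% higher, 5.25% lower), and 1 without the marked cells, beside 1451 of 12024 genes.

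Ratios within a library do not depend on the scaling between libraries. For every 100 *Csf1r* UMIs there were 0.250 and 0.227 *Csf1* UMIs in adult, 0.0813 and 0.102 *in vitro*, 8.0 and 10.1 after 1 day, 2.47 and 1.02 after 1 week and 3.93 and 4.89 after 3 weeks. The 5 groups did not overlap, and the ligand stood highest relative to its receptor at 1 day and lowest *in vitro*. For every 100 *Csf1r* UMIs there were 3.17 and 3.13 *Csf2ra* UMIs in adult, 6.83 and 8.94 *in vitro*, 36.1 and 39.2 after 1 day, 16.2 and 11.7 after 1 week and 9.25 and 11.8 after 3 weeks. All 8 cultured libraries lay above the adult pair, *in vitro* included, where *Csf2ra* CPM was below adult. *Csf2rb* per 100 *Csf2ra* UMIs was 80.8 and 72.5 *in vitro* and between 24.3 and 42.0 in the other 8 libraries, so there were more beta chain UMIs for each alpha chain UMI *in vitro* than in any other library. *Csf2rb2* per 100 *Csf2rb* was 40.0 and 45.3 *in vitro* and between 16.4 and 32.4 elsewhere. With 2 libraries against 2, the smallest two-sided exact permutation p is 0.333, so no ratio or share was tested.

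**Figure D4:**
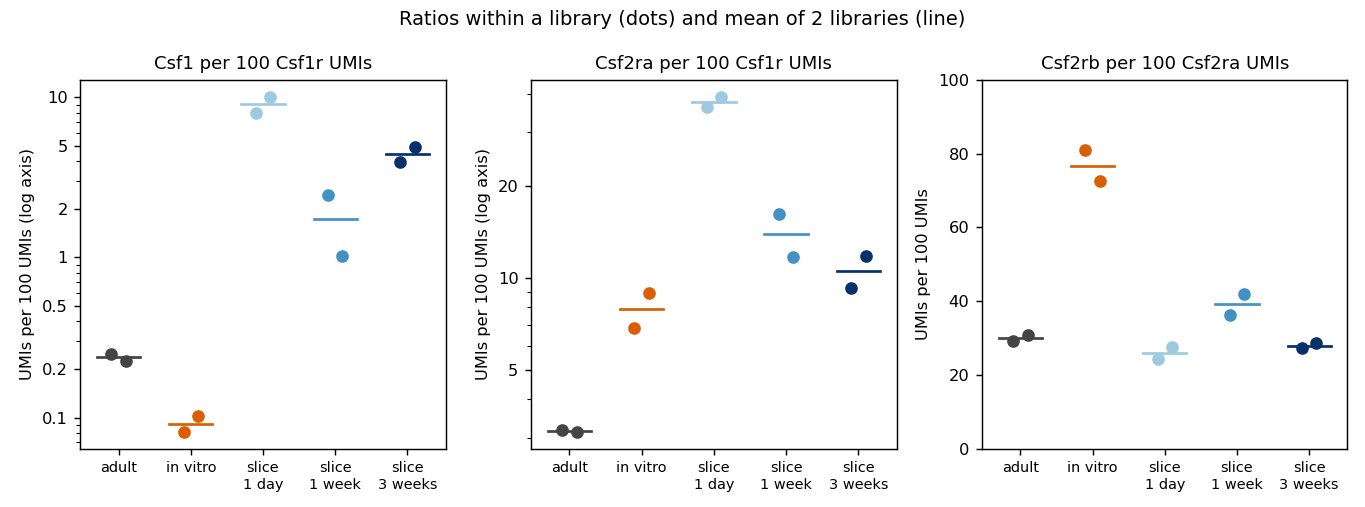
UMIs of 1 member per 100 UMIs of another within each library (dots) with the mean of the 2 libraries (line). *Csf1* per 100 *Csf1r* runs from 0.0813 *in vitro* to 10.1 in slices at 1 day, and *Csf2rb* per 100 *Csf2ra* is highest *in vitro*.

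Shares of cells were compared after each cell was thinned to 1500 UMIs, which left out shallower cells. A *Csf1r* UMI was found in 99.3% and 99.5% of adult cells, 73.7% and 63.7% *in vitro*, 47.9% and 45.8% after 1 day, 56.0% and 71.4% after 1 week and 79.8% and 68.5% after 3 weeks. The median adult cell held 6 and 5 *Csf1r* UMIs, against 1 and 1 *in vitro*, 0 and 0 after 1 day, 1 and 1.5 after 1 week and 2 and 1 after 3 weeks. After this thinning the adult libraries stood apart in the share of cells and in the level of the median cell, and the share falls when the level falls. Before thinning, a *Csf1r* UMI was found in 99.4% and 98.9% of the deeper *in vitro* cells and in 99.7% and 99.3% of adult cells. For comparison, neutrophil-marked cells, which should hold little *Csf1r*, carried a UMI of it before thinning in 30.9% and 35.5% of cells at 1 day, against 81.8% and 88.6% of the other, deeper cells.

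*Csf3r* UMIs were found in 27.1% and 23.5% of adult cells and in 3.31% and 2.72% of *in vitro* cells, with the slices between 7.80% and 12.8%. The 1 day shares of 12.8% and 8.09% were 6.68% and 4.98% without the cells over 2% neutrophil-marker UMIs, and 6.12% and 4.57% without all cells with markers of another cell type. *Csf2ra* was found in 15.3% and 15.1% of adult cells, 8.65% and 8.76% *in vitro*, and 30.2% and 22.8% at 1 day. *Csf2rb* was found in 4.86% to 12.5% of cells and *Csf2rb2* in 0.973% to 3.39%, both lowest in an adult library.

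*Csf1* UMIs were found in 1.36% and 0.861% of adult cells, 8.17% and 5.52% after 1 day, 4.26% and 1.79% after 1 week and 7.55% and 5.88% after 3 weeks. *In vitro* they were found in 2 of 2417 cells (0.0827%) and 2 of 2682 cells (0.0746%). Both *in vitro* libraries stood below the adult libraries and the slice libraries above them, but the slice 1 week replicate 2 value is 1 of 56 cells, with an interval of 0.0452% to 9.55% that takes in both adult values. Before thinning, *Csf1* UMIs were seen in 24 and 26 *in vitro* cells and in 262 and 712 slice 3 weeks cells. Single cells reached 16 UMIs at 1 day and 15 at 3 weeks, and at most 2 *in vitro*.

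**Figure D5:**
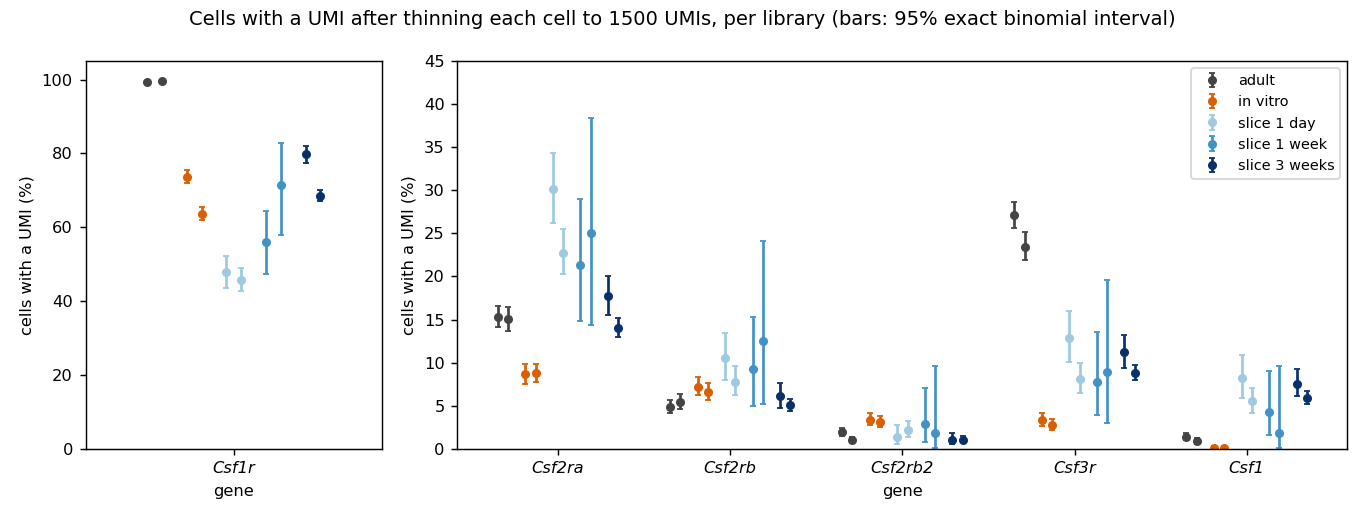
Percent of cells with a UMI of each member after thinning to 1500 UMIs per cell, 1 point per library, with 95% exact binomial intervals (counting error only). *Csf1r* runs from 45.8% at 1 day to 99.5% in adult, and *Csf1* is under 0.1% in both *in vitro* libraries.

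Of 9 other ligands and receptors of the family, 8 were at 5 UMIs or fewer in every group. IL-34, the other CSF1R ligand, had 1 UMI in the adult libraries and 0 elsewhere, and *Csf2*, *Il3* and *Il5* had 0 UMIs in all groups, where 3 counts amount to 0.0407 CPM *in vitro* and 2.05 CPM at 1 week. *Csf3* had 1 UMI, at 1 day, and *Kit*, the receptor of stem cell factor, had 5 UMIs in 3 cells at 1 week (3.41 CPM) and 0 elsewhere. The alpha chain of the IL-3 receptor, *Il3ra*, was the only one of these 9 genes that could be tested. It was measured at 4.32 and 4.12 CPM in adult, 25.7 and 32.8 CPM *in vitro*, 21.2 and 16.8 CPM at 1 day, 27.7 and 17.9 CPM at 1 week and 18.9 and 19.1 CPM at 3 weeks. All cultured libraries lay above adult, and *Il3ra* rose *in vitro* (2.79 ± 0.22, edgeR adjusted p = 2.96e-06), at 1 day (2.14 ± 0.23, adjusted p = 3.35e-05), at 1 week (2.52 ± 0.30, adjusted p = 0.000222) and at 3 weeks (2.16 ± 0.22, adjusted p = 5.67e-05).

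Among 22 genes of proximal CSF1R signalling, all tested, 6 were higher and 7 lower *in vitro*, 3 and 3 after 1 day, 5 and 3 after 1 week and 5 and 5 after 3 weeks. Over all genes tested, 22.4% were higher and 28.5% lower *in vitro*, 24.9% and 25.3% after 1 day, 15% and 13.6% after 1 week and 17.9% and 17.5% after 3 weeks, and the counts of the next 3 lists stand beside these shares. The median log2 fold changes of the 22 genes against adult were 0.20, −0.29, 0.17 and −0.05, beside −0.11, −0.06, −0.08 and −0.03 over all genes. Over all the pathway lists, 92 called changes against adult kept their sign with library size alone or RLE factors, and 31 of the 92 changed sign as UMIs per cell, so the directions that follow are on the TMM scale. Values of pathway genes include the neutrophil-marked cells of the slice 1 day and 1 week libraries and were not examined without them. The docking protein gene *Dok2* rose in all 4 cultures, from 0.366 and 0.386 CPM in adult to 98.8 and 98.2 CPM at 1 day (8.01 ± 0.48). The Src family kinase *Fyn* rose by between 2.19 and 2.83 on the log2 scale. The regulatory subunit of PI3 kinase, *Pik3r1*, and the lipid phosphatase SHIP1, *Inpp5d*, were lower in all 4 cultures, at between −2.03 and −1.09 and between −1.68 and −0.70, though both changed sign *in vitro* (0.44 and 0.72) and at 3 weeks (0.0194 and 0.38), and *Inpp5d* also at 1 week (0.15), as UMIs per cell. With library size alone the list counts were 3 higher and 8 lower at 1 day and 4 and 8 at 3 weeks, where 3588 and 3059 of all 12157 genes were lower.

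Of 13 genes of beta chain, JAK and STAT signalling, 12 were tested; 3 were higher and 3 lower *in vitro*, 3 and 4 after 1 day, 1 and 1 after 1 week and 2 and 2 after 3 weeks (50.8%, 50.2%, 28.6% and 35.4% of all genes were called in these comparisons). The median log2 fold changes were −0.09, 0.03, −0.08 and −0.24. The STAT5 target *Pim1* rose in all 4 cultures, by 1.43 ± 0.24 *in vitro*, 3.73 ± 0.25 at 1 day, 2.11 ± 0.34 at 1 week and 1.01 ± 0.25 at 3 weeks. The feedback inhibitor *Socs3* differed in sign, at −1.97 ± 0.23 *in vitro* and 1.35 ± 0.22 at 1 day, and was not called at 1 week (0.26) or 3 weeks (0.16), and its *in vitro* value was 0.26 as UMIs per cell. The survival gene *Bcl2l1* was lower *in vitro* (−1.11) and at 1 week (−0.74), again with the other sign as UMIs per cell. The phosphatase gene *Ptpn11* was called *in vitro* (0.65), but not with library size alone (0.35).

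The 8 transcription factor genes that are known to act on *Csf1r* changed in both directions, with 1 higher and 2 lower *in vitro*, 2 and 2 after 1 day, 1 and 2 after 1 week and 0 and 2 after 3 weeks, beside 50.8%, 50.2%, 28.6% and 35.4% of all genes called. *Irf8* was lower *in vitro* (−1.34), at 1 day (−1.10) and at 1 week (−0.62), and *Fli1* at 1 day (−1.41), 1 week (−1.02) and 3 weeks (−0.99), all 6 with the other sign as UMIs per cell, while *Cebpb* was higher at 1 day (1.75) and 1 week (1.34). *Spi1*, which encodes PU.1, was called at 3 weeks (−0.69, but 0.42 as UMIs per cell) and was not called in the other 3 cultures, with values from −0.24 to −0.07. Of 8 genes of the growth response to CSF1, 2 were higher and 1 lower *in vitro*, 4 and 0 after 1 day, 2 and 1 after 1 week and 2 and 0 after 3 weeks, beside the same shares of all genes. The cyclin gene *Ccnd2* rose in all 4 (5.81, 5.52, 5.28 and 2.66). *Fos* was higher *in vitro* (1.83) and at 1 day (3.04), and *Myc* was lower *in vitro* (−2.58). The cyclin gene *Ccnd1* was lower at 1 week (−1.36, but −0.0758 and not called as UMIs per cell) and *Ccnd3* higher at 1 day (1.17) and 1 week (1.20). Of 5 genes for the shedding of CSF1R and membrane-bound CSF1, 4 were tested. Of these, 1 was higher and 2 lower *in vitro*, 1 and 1 after 1 day, 1 and 0 after 1 week and 1 and 1 after 3 weeks, beside the same shares of all genes. *Rhbdf2*, a partner of the sheddase ADAM17, rose in all 4 cultures by between 1.46 and 1.99, while the gene of ADAM17 itself was called in none. The sheddase *Adam10* was lower *in vitro* (−0.73) and at 1 day (−1.01), again not as UMIs per cell (1.44 and 0.55).

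The genes most like each member over the 10 libraries were ranked by Pearson's r of log2 CPM among 6011 genes (6012 for *Csf2rb2*). They were *Fam105a* (r = 0.99), *Rnase4* and *Tagap* for *Csf1r*, *Atf1* (0.957), *Mcemp1* and *Lrg1* for *Csf2ra*, and *Rac2* (0.957), *Abhd5* and *Med25* for *Csf2rb*. For *Csf2rb2* they were *Mrps23* (0.967), *Cox19* and *Cacul1*, for *Csf3r* *Gp9* (0.985), *Tmem63a* and *Orai1*, and for *Csf1* *Hcar2* (0.988), *Ssr1* and *Gcnt2*. The points share libraries, depth and the 5 groups, so these values are descriptions.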

How the data were processed

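Microglia of 5 groups (2 libraries each) were sequenced as 10x Genomics 3′ libraries. The authors aligned and counted the reads with Cell Ranger (1.3.0 and mm10 in the submitters' processing notes) and deposited 1 table per library of raw UMI counts, by gene and barcode; a gene missing from a table was taken as 0. Of the 18292 symbols, 17611 (96.3%) were in the reference annotation, and 13 listed more than once were summed. Of 19637 barcodes, 578 were dropped (more than 30000 UMIs, fewer than 400 genes, or a mitochondrial share above 5%). No doublet caller was run. Groups came from the labels.

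The counts of the 19059 kept cells were added up by library. All 5 groups entered 1 quasi-likelihood model of edgeR 4.0.16 (R 4.3.3), with TMM scaling and filterByExpr at 10 counts (12157 genes, biological coefficient of variation 18.3%). P-values were adjusted by Benjamini and Hochberg over all genes tested, and genes were called at an adjusted p under 0.05 and a fold change over 1.5. Errors are SEs of the fit. Shares used cells thinned to 1500 UMIs; intervals and the floor of 3 counts cover counting error only. Scripts were tested on simulated data. DESeq2 1.42.0, other scaling, filters, cells, designs and left-out libraries were tried as alternatives.

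Replicate numbers did not pair the libraries by the correlation of their deviations (−0.112 to 0.0941 between groups), so no block was fitted in the main model. Named genes are the 6 members, the pathway genes called in 1 direction in all 4 cultures, up to 4 genes per list with the largest called change against adult among those whose average log2 CPM reached 4, and the 3 genes most like each member; 1 of them is not reported here. The members and lists were chosen with earlier results of these data known.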

Additional observations from a re-analysis of the deposited data

Results flagged for a closer look

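The changes of *Csf1* and *Csf2ra* against adult differed between culture conditions when those conditions were compared directly in the same edgeR model. *Csf1* was at −3.32 *in vitro* and at 2.66, 1.71 and 2.76 in slices at 1 day, 1 week and 3 weeks, and the direct differences were −5.98 (adjusted p = 3.95e-07), −5.03 (adjusted p = 1.87e-05) and −6.08 (adjusted p = 2.08e-07). Both *in vitro* libraries lay below all 6 slice libraries. *Csf2ra* was at −0.62 *in vitro* and at 1.02 and 0.89 at 1 day and 1 week, and the direct differences were −1.64 (adjusted p = 4.09e-05) and −1.5 (adjusted p = 0.000225). As UMIs per cell these differences were −0.99 and −0.52, the latter not called (adjusted p = 0.237). The *in vitro* call of *Csf2ra* against adult was lost in 11 of 17 other settings and turned to 1.54 as UMIs per cell, so its opposite directions against adult are not firm. The *in vitro* cells were collected from the medium of mixed glial cultures and the slice cells from tissue, and these conditions cannot be told apart from the culture type.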

How the results depend on the processing

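Over the alternatives, 856 of the single values of members kept their direction and their side of the threshold, 38 passed it, 65 no longer passed it and 37 changed sign. Without scaling for depth, as UMIs per cell, *in vitro* *Csf1r* and *Csf2ra* were 0.24 and 1.54 relative to adult and 0.54 and 0.15 relative to slice 3 weeks, and *Csf1r* was 0.32 and *Csf2rb* 0.46 *in vitro* against 1 week; *Csf2rb* was 0.56 *in vitro* against 1 day, *Csf2rb2* −0.30 at 1 week against 1 day, *Csf3r* −0.0419 at 3 weeks against 1 week and *Csf1* −0.34 at 3 weeks against 1 day. Median log2 fold changes over all genes against adult were then 2.04, 1.49, 1.10 and 1.05, and with library size alone −0.42, −0.19, −0.30 and −0.24. The other sign changes were among differences that had not been called. With library size alone *Csf2rb* was −0.0093 at 3 weeks against adult and *Csf2rb2* −0.051 at 1 week against 1 day. In thinned cells *Csf2rb2* was −0.23 at 3 weeks against adult, *Csf3r* −0.69 at 1 week and −0.24 at 3 weeks against 1 day, *Csf1r* 0.33 at 3 weeks against 1 week and *Csf1* −0.0686 at 3 weeks against 1 day. For *Csf2rb2* at 1 week against 1 day, no filter on low genes gave −0.0479, every barcode −0.026 and removal of cells with markers of another type −0.31. For *Csf2rb* *in vitro* against 1 day, no filter gave 0.0714, removal of cells with other markers 0.0374 and removal of cells with at least 2% neutrophil-marker UMIs 0.0487. *Csf3r* at 3 weeks against 1 week was −0.0116 without cells with other markers and −0.11 with the study identifier as a covariate, which also gave −0.0149 for *Csf1* at 3 weeks against 1 day.

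The replicate number as a block left the counts of called members at 6, 6, 5 and 3 against adult and put *Csf2rb2* at 1 week against 1 day at −0.0008. *Csf1r* *in vitro* against 1 week, not called in the main fit (−0.66), became called (−0.68). The block was 1 of 6 settings, out of 16, in which this difference passed. Leaving out 1 library gave −0.10 to 0.97 for *Csf2rb2* at 3 weeks against adult, −0.12 to 0.17 for *Csf2rb2* and −0.0321 to 0.81 for *Csf3r* at 1 week against 1 day, −0.39 to 0.15 for *Csf1r* and −0.13 to 0.30 for *Csf3r* at 3 weeks against 1 week, −0.01 to 0.21 for *Csf1* at 3 weeks against 1 day and −0.0648 to 0.0694 for *Csf2rb* *in vitro* against 1 day. The number of members called ranged from 3 to 6 at 1 week against adult, from 0 to 1 at 1 week against 1 day and from 0 to 2 at 3 weeks against 1 week, while calls over all genes ranged from 1446 to 2987, from 218 to 803 and from 46 to 1311. For 1 week against 1 day it was 1 without scaling, 0 in thinned cells, 1 with only these 2 groups in the model and 1 without neutrophil-marked cells, where 767 of 12157, 226 of 10731, 1089 of 9385 and 1451 of 12024 genes were called. For 3 weeks against 1 week it was 0 without scaling (595 genes), 0 in thinned cells (294 of 10731), and 1 with the study identifier (815), with only these 2 groups (273 of 10442) or without neutrophil-marked cells (516 of 12024). The cause of these changes was not tested. *Csf1* per 100 *Csf1r* moved by less than its SD between replicates under each choice of cells, from 1.74 to 1.34 at 1 week without cells with markers of another cell type and from 9.06 to 8.36 at 1 day (8.37 without cells over 2%). The 385373 UMIs of slice 1 week replicate 2, with 6 UMIs each of *Csf1* and *Csf2rb2*, limit each comparison with 1 week.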

Other observations

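Within the slice 3 weeks libraries, *Csf1r* was compared between cells with and without a UMI of *Gpnmb*, a gene of activated microglia, after thinning to 1500 UMIs. *Csf1r* stood at 985 CPM in 153 cells with *Gpnmb* and 1631 CPM in 1000 cells without it in replicate 1, and at 636 CPM in 309 cells and 1101 CPM in 3431 cells in replicate 2. *In vitro* the levels were 837 and 646 CPM with *Gpnmb* against 1036 and 843 CPM without it (replicates 1 and 2), so *Csf1r* was lower in *Gpnmb* cells of all 4 libraries. *Csf1* showed no common direction at 3 weeks, at 82.8 against 57.3 CPM in replicate 1 and 32.4 against 45.9 CPM in replicate 2.

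Cells with a UMI of the proliferation genes *Mki67* or *Top2a* were compared in the same way with the others. *Csf1r* in these cells was at 639 against 976 CPM and 563 against 760 CPM *in vitro* (replicates 1 and 2), lower in both libraries. At 3 weeks it was at 2088 against 1495 CPM in replicate 1 and 1043 against 1063 CPM in replicate 2, with no common direction. In slice 1 day replicate 2, the only other library with at least 50 such cells, it was at 506 CPM in 58 cells against 534 CPM. *Csf1* in cells with these genes rested on only 6 and 4 UMIs at 3 weeks. It was at 40.4 against 62.6 CPM in replicate 1, with overlapping counting intervals, and at 13.8 against 46.4 CPM in replicate 2, where they did not overlap. These values compare cells of the same library and were not tested.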
